A study of Mus musculus with 11 samples.

Results

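The nuclear-encoded subunits of the respiratory chain were followed in RNA-seq data from the anterior cingulate cortex (ACC) of mice that had or had not learned to press a lever for food. The genes were chosen by symbol alone, without their values. A row was taken when its symbol began with Ndufa, Ndufb, Ndufc, Ndufs or Ndufv and a digit, was Sdha, Sdhb, Sdhc or Sdhd, or began with Uqcr, Atp5 or Cox4 to Cox8, and assembly factors (Ndufaf), pseudogenes and Ndufa4l2 were left out. This gave 79 of the 14974 genes in the table: 35 of complex I, 4 of complex II, 8 of complex III, 15 of complex IV and 17 of complex V. The symbols follow an older nomenclature, and a few carry the name of a complex without being a core part of it. Ndufa4 is now counted with complex IV, Cox7a2l acts in the assembly of respiratory supercomplexes, Atp5s is factor B, and Atp5sl is the complex I assembly factor now named Dmac2. They were kept where their symbols placed them.

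All mice were wild-type C57BL/6 (C57BL/6J in the study's methods), 3 to 5 months old, and both groups were food-restricted. Trained mice (3 female, 3 male) had worked on a fixed-ratio schedule that asked for more and more presses per reward, while untrained mice (3 female, 2 male), matched for age and sex, spent the same sessions in the chamber and received the rewards freely. The ACC was taken within 1 h of the last session, and each of the 11 libraries came from 1 mouse. The microdissected tissue holds every cell type of this cortex, so that fewer cells of a type and less RNA per cell cannot be told apart in any value below. Values are FPKM, the fragments of a gene scaled by its length and by the depth of the library, and each library carries its group and its title number as a name.

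The respiratory chain couples the oxidation of NADH and succinate to the pumping of protons across the inner mitochondrial membrane. Complexes I and II pass electrons to ubiquinone, complex III passes them to cytochrome c, complex IV passes them to oxygen, and complex V uses the proton gradient to make ATP. The core subunits hold the flavins, iron-sulphur clusters, haems and catalytic sites, and the many accessory subunits, most of them small, assemble and stabilise the complexes. In cortex most of this ATP pays for ion pumping at synapses and axons. The 13 subunits encoded in the mitochondrial genome were not analysed here.

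Some libraries stood apart. The depth, estimated from the steps between low values, was 17.8 to 27.1 M fragments in trained and 14.2 to 26.3 M in untrained libraries. Markers of neurons and astrocytes were found in all 11 libraries, with summed levels of 2582 to 2881 FPKM in trained and 2568 to 3292 FPKM in untrained libraries for 6 neuronal genes. Untrained 10 held 167 FPKM of the choroid plexus markers Ttr and Kl, against at most 4.40 FPKM in any trained library. It had the highest summed level of the 11 for the neuronal, astrocyte, microglial, mural cell and meningeal markers. Of the genes in these sums, Slc17a7, Gad1, Gad2, Tmem119 and Aldh1l1 were not highest there, and the astrocyte marker Aldh1l1 was lowest of the 11. Library numbers also fell into a range from 1 to 6 (3 trained and 2 untrained mice, all female) and a range from 10 to 17 (3 trained and 3 untrained mice, 5 of them male). What the numbers stand for is not stated, and the range and the sex of the mouse cannot be told apart except through Untrained 17, a female.

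Subunit genes were abundant messages of the ACC, and their levels followed the complex less than the single gene. The mean over the 11 libraries ran from 1.23 FPKM for Cox6b2 to 523 FPKM for Cox4i1, with a median of 73.0 FPKM, against 7.78 FPKM for all 14936 genes tested. All 79 passed the filter of a mean of at least 0.1 FPKM. Within complex I the highest was Ndufb9, an accessory subunit, at 218 FPKM, and the lowest Ndufa11, an accessory subunit of the membrane arm, at 9.70 FPKM. Sdha, the flavoprotein that oxidises succinate, led complex II at 148 FPKM, and Sdhd, a membrane anchor, was lowest at 51.9 FPKM. Uqcrq, a small subunit, led complex III at 173 FPKM, and Uqcrb was lowest at 13.6 FPKM. Atp5b, the catalytic beta subunit, led complex V at 494 FPKM, and Atp5l, subunit g of the membrane part, was lowest at 7.67 FPKM.

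**Figure D1:**
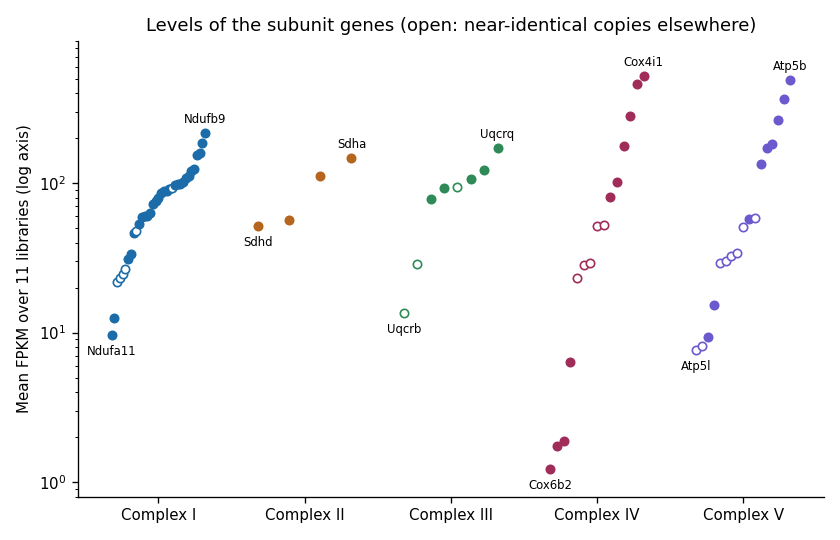
Each point is 1 of the 79 subunit genes, placed by its mean FPKM over 11 libraries on a log axis and grouped by complex. Open points have a near-identical copy elsewhere in the genome, and these 22 genes lie at a median of 29.0 FPKM, below the 92.8 FPKM of the 57 filled points.

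A part of this spread goes with copies of the genes. Coding sequences of 22 subunit genes matched transcripts of another locus over at least 100 bases with at least 95% identity, and 41 of the 44 copies are annotated as pseudogenes. Their levels had a median of 29.0 FPKM, and those of the other 57 had a median of 92.8 FPKM. The gene with the most copies, Atp5l with 9, was also the lowest of complex V, and Uqcrb, with 3 copies, was the lowest of complex III. The lowest genes of complexes I, II and IV, Ndufa11, Sdhd and Cox6b2, had no such copy. No source used here says how fragments that match several loci were counted, so the levels of these 22 genes are uncertain. Exons of 25 subunit genes also overlapped an exon on the opposite strand, Atp5j for instance with Gabpa, and whether the counting used strand is likewise unknown here.

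Trained mice had higher mean levels than untrained mice for 73 of the 79 subunit genes (92.4%), against 49.1% of all genes tested. The differences were small. On the log2(FPKM + 0.1) scale the median difference of the 79 genes was 0.16, and that of all genes was -0.0029. No gene passed the test across all genes. The lowest adjusted p of a subunit gene was 0.537 in limma, none of the 79 had an adjusted p under 0.05 and 0% of all 14936 genes did. At an unadjusted p under 0.05, 13 of the 79 (16.5%) were higher in trained mice, against 4.13% of all genes, and 0 were lower, against 4.20% of all genes. None of the 79 reached the thresholds used in the study, a change of 1.5-fold or more with an unadjusted p under 0.01, which 0.147% of all genes did upwards and 0.134% downwards.

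The groups overlapped for every subunit gene. Complete separation occurred in 0.375% of all genes with the trained libraries higher and in 0.388% with them lower. For 21 of the 79 (26.6%), exactly 5 of the 6 trained libraries lay above every untrained library, a pattern found in 2.32% of all genes. In all 21 the library that did not was Trained 14. This library was the lowest of the 11 libraries for 23 subunit genes, and Untrained 10 was the lowest for 44.

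**Figure D2:**
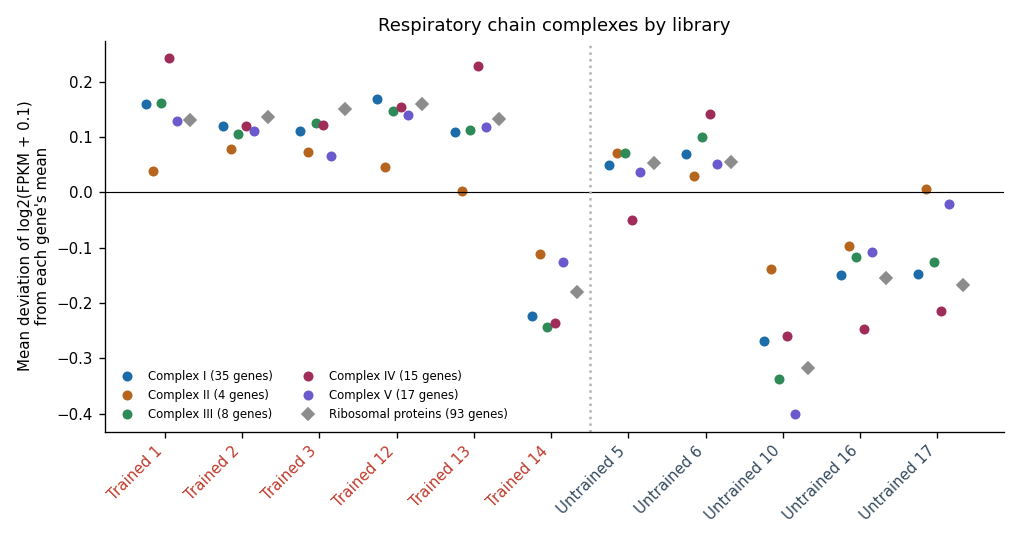
For each library the mean deviation of log2(FPKM + 0.1) from each gene's own mean is shown for complexes I to V and, as diamonds, for 93 cytosolic ribosomal protein genes. Trained 14 and Untrained 10, 16 and 17 lie below 0 for nearly all sets, and the other 5 trained libraries lie above 0.

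Averaged over the 79 genes, the deviation of a library from the gene means was 0.16 in Trained 1, 0.11 in Trained 2, 0.10 in Trained 3, 0.15 in Trained 12, 0.13 in Trained 13 and -0.20 in Trained 14. It was 0.03 in Untrained 5, 0.08 in Untrained 6, -0.30 in Untrained 10, -0.15 in Untrained 16 and -0.12 in Untrained 17. Thus 5 trained libraries lay above all untrained ones, and Trained 14 lay among the low untrained ones. The 4 lowest libraries were also the 4 shallowest, at 14.2 to 18.9 M fragments against 19.7 to 27.1 M in the others. The part of depth in these differences was not tested.

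The count of genes under that threshold depended on single libraries. Without Trained 14, 50 of the 79 genes (63.3%) were higher at an unadjusted p under 0.05, against 7.49% of all genes, and the median difference was 0.21. Without Untrained 10, 8 were higher, against 4.03% of all genes, and the median was 0.10. The count was 29 without Untrained 5 (5.45% of all genes) and 33 without Untrained 6 (5.59%), and it lay between 6 and 9 without any 1 of Trained 1, 2, 3, 12 or 13 or of Untrained 16 or 17 (2.81% to 3.66%). Of the 13 genes, Ndufa7, Cox7b and Atp5d kept an unadjusted p under 0.05 whichever library was left out. Without Untrained 10 the medians of complexes II, III and V fell to 0.0055, 0.07 and 0.06, and without Trained 14 those of complexes II and IV were 0.07 and 0.34. Within library numbers 1 to 6 the median difference was 0.06, and within 10 to 17 it was 0.18.

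**Figure D3:**
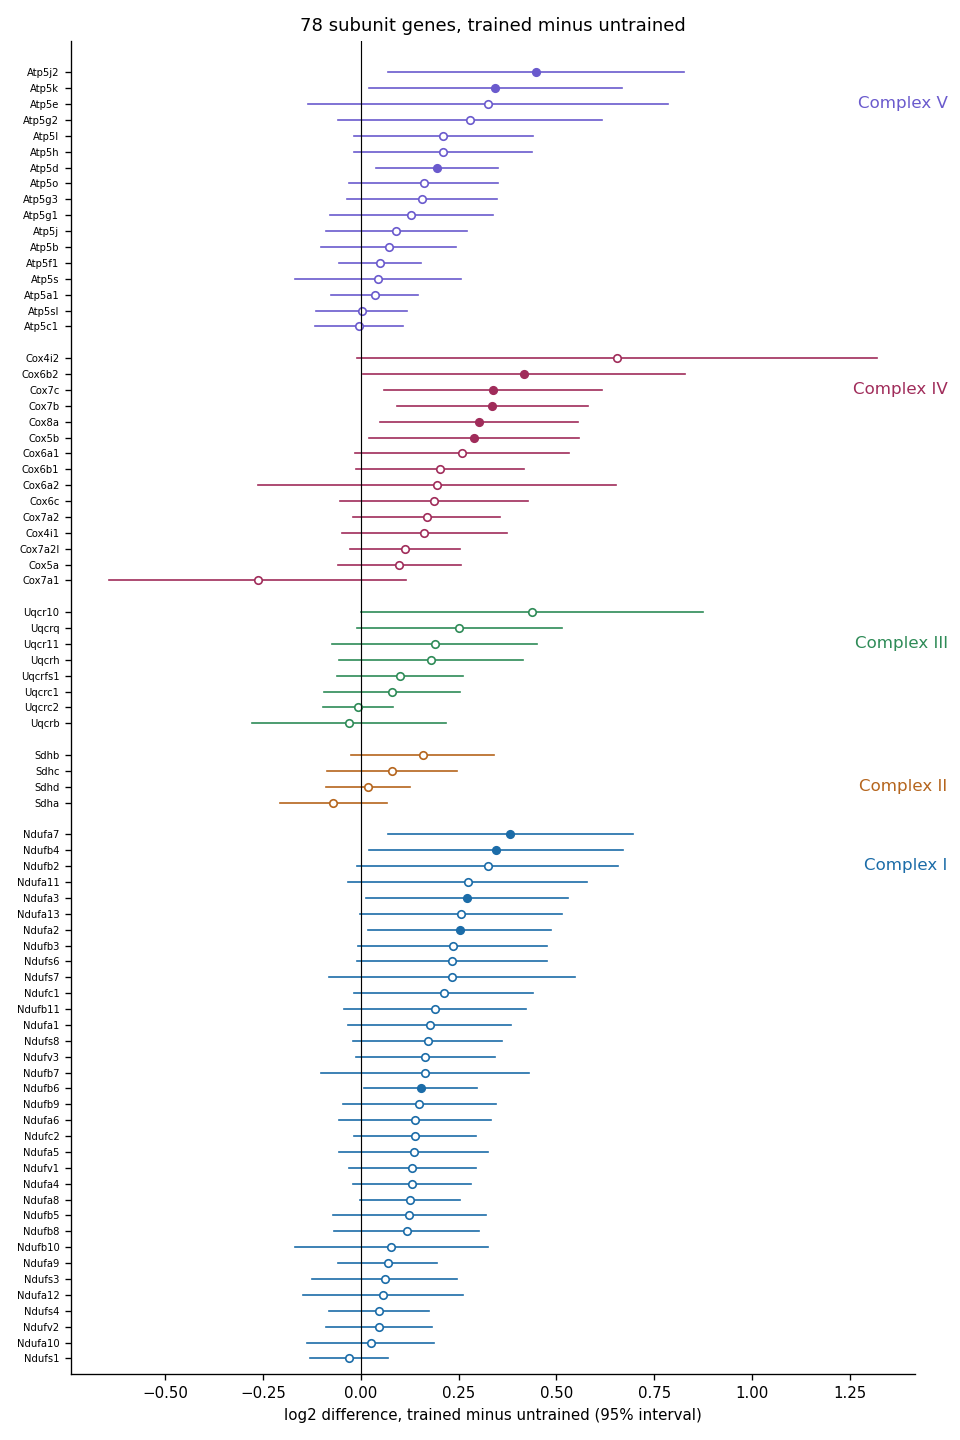
The log2 difference, trained minus untrained, of 78 of the 79 genes is drawn as a point with its 95% interval from limma, grouped by complex. Filled points have an unadjusted p under 0.05, all 13 of them to the right of 0.

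Complex I, the NADH dehydrogenase, had 34 of its 35 genes higher in trained mice, with a median difference of 0.15. Of the 35, 5 were higher at an unadjusted p under 0.05, against 4.13% of all genes. These 5, Ndufa2, Ndufa3, Ndufa7, Ndufb4 and Ndufb6, are all accessory subunits. Ndufa7 had the smallest p of the complex. In trained mice it was at 10.7 FPKM in the lowest library, with a median of 14.3 and a highest value of 15.3. In untrained mice it was at 12.95, 13.20, 7.02, 11.01 and 9.80 FPKM in Untrained 5, 6, 10, 16 and 17. All trained libraries but Trained 14 thus exceeded every untrained one, and the log2 difference was 0.38 ± 0.15 (SE; exact permutation test, two-sided, p = 0.0390; limma, adjusted p = 0.562).

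Core subunits of complex I showed uneven differences, some above and some below the median of the complex. Ndufs1, the largest of them, which holds iron-sulphur clusters, was the 1 gene of the complex with a lower mean in trained mice, at 45.9 ± 2.24 FPKM (SD, n = 6) against 46.8 ± 1.44 FPKM (SD, n = 5), a log2 difference of -0.03. Ndufv1, which binds NADH, was at 106 ± 8.43 and 96.9 ± 10.2 FPKM. Ndufv2, its partner with an iron-sulphur cluster, was at 60.6 ± 4.73 and 58.7 ± 3.67 FPKM. None of these differences exceeded the spread between libraries (exact permutation test, two-sided, p = 0.42, 0.132 and 0.481). The same held for Ndufs7, which holds an iron-sulphur cluster next to the ubiquinone site, with a log2 difference of 0.23, and for Ndufs3 and Ndufs8, with 0.06 and 0.17 (exact p between 0.123 and 0.528).

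Complex II, succinate dehydrogenase, is the 1 complex with no subunit encoded in mitochondria, and it had the smallest median difference, 0.05 over its 4 genes. Sdha was lower on average in trained mice. It was at 136 FPKM in the lowest trained library, with a median of 146 and a highest value of 150. In Untrained 5, 6, 10, 16 and 17 it was at 152, 146, 179, 137 and 144 FPKM. The groups overlapped throughout, and Untrained 10, lowest for most subunit genes, was here the highest library. The log2 difference was -0.07 ± 0.06 (SE) and -0.01 without Untrained 10. Sdhb, the iron-sulphur subunit, averaged 116 ± 8.31 FPKM in trained mice (SD, n = 6) and 105 ± 13.8 FPKM in untrained mice (SD, n = 5), and the anchors Sdhc and Sdhd differed by 0.08 and 0.02 on the log2 scale, all within the spread (exact permutation test, two-sided, p = 0.13, 0.361 and 0.697). The complex holds only 4 genes, and the difference between complexes was not tested.

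Complex III, the cytochrome bc1 complex, had 6 of 8 genes higher in trained mice, with a median difference of 0.14. None had an unadjusted p under 0.05, against 4.13% of all genes higher and 4.20% lower. Uqcr10, a small subunit, came closest. It ranged in trained mice from 78.1 FPKM over a median of 106 to 122 FPKM. In Untrained 5, 6, 10, 16 and 17 it was at 94.6, 101, 39.3, 84.2 and 86.0 FPKM. The value of Untrained 10 was less than that of every other library, and the log2 difference of 0.44 ± 0.20 (SE; exact permutation test, two-sided, p = 0.0563) was 0.19 without it. The large core proteins differed little. Uqcrc1 was at 126 ± 11.6 and 119 ± 13.03 FPKM in trained and untrained mice, Uqcrc2 at 92.6 ± 3.22 and 93.0 ± 2.75 FPKM, and the Rieske iron-sulphur protein Uqcrfs1 at 80.4 ± 4.36 and 75.4 ± 9.34 FPKM (SD, n = 6 and 5).

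Complex IV, cytochrome c oxidase, had the largest median difference of the complexes, 0.20, with 14 of 15 genes higher in trained mice and 5 at an unadjusted p under 0.05, namely Cox5b, Cox6b2, Cox7b, Cox7c and Cox8a. Cox7b, a short membrane subunit, had the smallest p of all 79 genes. Its trained libraries were tightly grouped, with a median of 26.6 and a highest value of 27.0 FPKM, except for Trained 14 at 19.3 FPKM. Untrained 5, 6, 10, 16 and 17 were at 19.9, 25.3, 15.7, 19.8 and 20.2 FPKM. Thus 5 trained libraries lay above every untrained one, and Trained 14 lay below 4 of the 5. The log2 difference was 0.34 ± 0.11 (SE; exact permutation test, two-sided, p = 0.0281; limma, adjusted p = 0.537).

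Other subunits of complex IV also had higher means in trained mice. Cox4i1, a subunit that takes part in the regulation of the enzyme by ATP, averaged 549 ± 48.1 FPKM in trained mice (SD, n = 6) and 493 ± 73.0 FPKM in untrained mice (SD, n = 5) (exact permutation test, two-sided, p = 0.173). Cox8a, a short membrane subunit, was at 500 ± 45.9 and 411 ± 74.7 FPKM (exact p = 0.0260). Cox5b, a zinc-binding subunit on the matrix side, was at 31.7 ± 5.13 and 25.8 ± 3.74 FPKM, and Cox5a, its neighbour, at 106 ± 9.98 and 98.5 ± 7.65 FPKM (exact p = 0.0866 and 0.236). These subunits thus differed by 0.16, 0.30, 0.29 and 0.10 on the log2 scale, and for each of them Trained 14 was the lowest trained library.

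Several subunits of complex IV have a second isoform that is best known from muscle, lung or testis, and in the ACC these isoforms were rare. As a share of the summed FPKM of the pair, Cox4i2, the lung-type isoform that responds to oxygen and is made by mural cells, gave 0.335% against Cox4i1. Cox6a2, the heart and muscle isoform that parvalbumin interneurons also make, gave 2.22% against Cox6a1. The testis-type Cox6b2 gave 0.688% against Cox6b1, and the muscle-type Cox7a1 gave 2.296% against Cox7a2. Cox7a2l, by contrast, reached 39.3% against Cox7a2. These are means over the 11 libraries, and Cox8b was not analysed here.

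Cox4i2 had the largest log2 difference of all 79 genes, 0.65 ± 0.31 (SE), yet its values did not separate the groups. Trained libraries ran from 1.47 FPKM over a median of 1.87 to 2.65 FPKM, and Untrained 5, 6, 10, 16 and 17 were at 0.920, 2.15, 2.49, 0.870 and 0.578 FPKM. The exact permutation test gave p = 0.117 (two-sided). Untrained 10, the highest untrained library for Cox4i2, also held the most mural cell marker RNA (34.6 FPKM summed over Rgs5, Kcnj8 and Acta2, against 18.4 to 24.8 FPKM in trained libraries), and without it the log2 difference was 0.90 (limma, unadjusted p = 0.00711). The sum of these markers ran from 21.4 to 34.6 FPKM in untrained libraries. All 3 markers had lower means in trained mice, whereas Cox4i2 had a higher one. The part of mural cells was not tested. At these levels the values rest on few fragments, about 4 to 29 per library over the coding length.

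Cox7a1 was the 1 subunit of complex IV with a lower mean in trained mice, at 1.72 ± 0.400 FPKM (SD, n = 6) against 2.08 ± 0.501 FPKM (SD, n = 5), within the spread (exact permutation test, two-sided, p = 0.212). Its share of the pair with Cox7a2 was 1.98 ± 0.383% in trained and 2.68 ± 0.554% in untrained mice (exact p = 0.0368, the smallest of 7 shares compared and 0.258 after Benjamini-Hochberg adjustment over them). The 2 genes entered this share with opposite signs, since Cox7a2 differed by 0.17 and Cox7a1 by -0.26. Cox6a2 was at 6.82 ± 2.13 and 5.77 ± 1.11 FPKM (exact p = 0.472), while the summed level of 4 parvalbumin interneuron markers was 89.9 to 104 FPKM in trained and 85.8 to 99.0 FPKM in untrained libraries. Cox6b2 was at 1.40 ± 0.371 and 1.02 ± 0.297 FPKM (exact p = 0.0801).

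**Figure D4:**
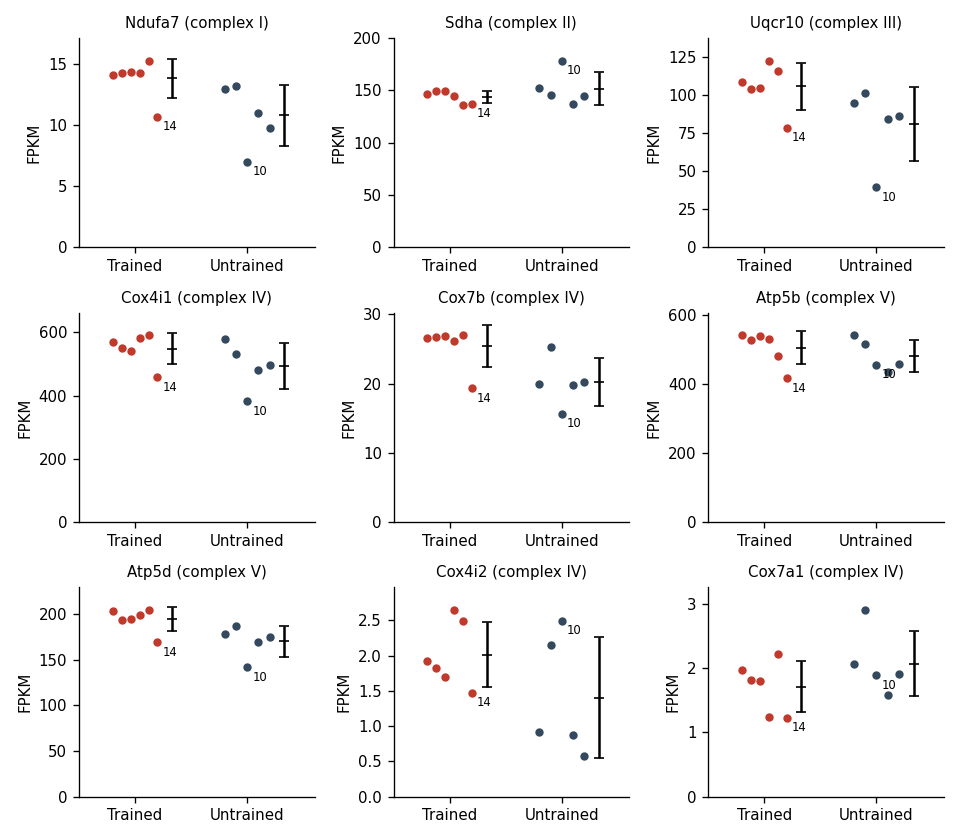
FPKM of 9 subunit genes in each library, with the mean and SD of the 6 trained and 5 untrained libraries at the right of each column and Trained 14 and Untrained 10 marked by their numbers. In Cox7b and Ndufa7 all trained libraries but Trained 14 lie above every untrained library, whereas in Sdha Untrained 10 is the highest point.

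Complex V, the ATP synthase, had 16 of 17 genes higher in trained mice, with a median difference of 0.16. Atp5d, Atp5j2 and Atp5k, 3 of the 17, were higher at an unadjusted p under 0.05, against 4.13% of all genes. Atp5d, the delta subunit of the central stalk, ranged in trained mice from 169 FPKM over a median of 197 to 205 FPKM. It was at 178, 186, 141, 170 and 175 FPKM in Untrained 5, 6, 10, 16 and 17. Again Trained 14 alone fell inside the untrained range. The log2 difference was 0.19 ± 0.07 (SE; exact permutation test, two-sided, p = 0.0238; limma, adjusted p = 0.562).

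Atp5j2, subunit f of the membrane part, had the largest difference of the complex, 0.45 ± 0.18 (SE). Trained libraries lay between 51.3 and 71.5 FPKM with a median of 68.3, and Untrained 5, 6, 10, 16 and 17 were at 55.2, 59.6, 27.3, 60.0 and 44.1 FPKM. Without Untrained 10 the difference was 0.25, so this library supplied much of its size. Subunits of the catalytic head differed less than Atp5d and Atp5j2. Both were named for a small p or a large difference, so this contrast was fixed in part by the choice. Atp5b was at 505 ± 48.7 FPKM (SD, n = 6) and 481 ± 45.1 FPKM (SD, n = 5), the alpha subunit Atp5a1 at 371 ± 18.1 and 362 ± 17.7 FPKM, and the gamma subunit Atp5c1 at 58.5 ± 3.93 and 58.6 ± 1.33 FPKM (exact permutation test, two-sided, p = 0.418, 0.411 and 0.985).

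The c subunit, which forms the rotating ring, is made from a trio of genes that encode the same mature protein. Of their messages that of Atp5g3 was the most abundant, at 279 ± 21.7 FPKM in trained mice (SD, n = 6) and 252 ± 33.4 FPKM in untrained mice (SD, n = 5). Atp5g1 was at 33.9 ± 4.23 and 30.9 ± 3.52 FPKM, and Atp5g2 at 8.80 ± 1.10 and 7.39 ± 1.82 FPKM. In the pair with Atp5g3 they gave 10.9% and 2.95%. These shares are uncertain, since Atp5g1 has 1 near-identical copy elsewhere and Atp5g2 has 2, while Atp5g3 has none. None of the 3 genes differed beyond the spread (exact permutation test, two-sided, p = 0.139, 0.271 and 0.147), and the shares did not either (exact p = 0.658 and 0.281).

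The size of the difference went with the length of the coding sequence. For the 20 subunit genes with a coding length of up to 300 bases the median log2 difference was 0.23, for the 38 genes of 301 to 600 bases it was 0.15, and for the 21 longer genes it was 0.07. Across the 79 genes Spearman's rho between the difference and the coding length was -0.63, a description in which all points share the same 11 libraries. Across 14055 genes with a coding length it was -0.15. Of the 6 genes with a lower mean in trained mice, Ndufs1, Sdha, Uqcrc2 and Atp5c1 have coding lengths of 2181, 1992, 1359 and 894 bases, and Uqcrb and Cox7a1 have 333 and 267 bases.

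**Figure D5:**
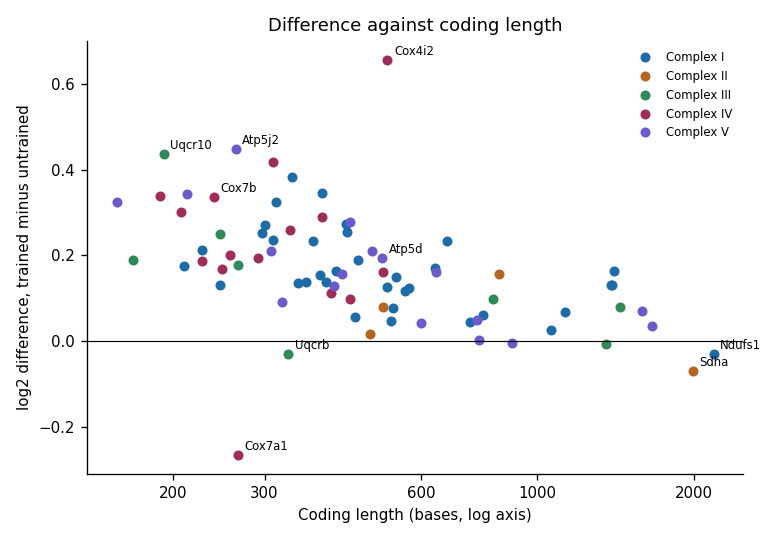
The log2 difference, trained minus untrained, of each of the 79 genes is plotted against its coding length on a log axis, coloured by complex. Short genes such as Uqcr10 and Atp5j2 lie highest and the long Ndufs1 and Sdha lie near or below 0, with Cox4i2 and Cox7a1, both under 2 FPKM on average, outside the band.

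Among genes of at least 10 FPKM that are neither subunits nor ribosomal proteins, the median difference was 0.10 for 132 genes with a coding length of up to 300 bases, 0.04 for 775 genes of 301 to 600 bases and -0.01 for 5290 longer genes. Of the 132 short genes, 19 were higher at an unadjusted p under 0.05. The cytosolic ribosomal proteins, which are not part of mitochondria, were taken as a set of their own. Of 93 such genes 86 had a higher mean in trained mice, and the median difference was 0.19. With an unadjusted p under 0.05, 31 were higher and 0 lower, against 4.13% and 4.20% of all genes. Library by library they deviated like the subunit genes, from -0.18 in Trained 14 and -0.32 in Untrained 10 to 0.16 in Trained 12. A shift of this size thus occurred outside the respiratory chain too, and the part of message length or depth in it was not tested.

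The range of library numbers made a difference of the same size. With training in the model, 77 of the 79 genes had lower levels in libraries 10 to 17 than in libraries 1 to 6. Their median log2 difference was -0.16, and that of all genes was -0.0027. At an adjusted p under 0.05 in limma 3 of the 79 were lower, a share near the 2.95% of all genes. None of the 79 were higher, against 6.56% of all genes. With the libraries centred on their medians the split of all calls moved from 69.0% higher to 56.5% higher, and 9 subunit genes were lower, against 4.23% of all genes. The 3 genes were Atp5k, subunit e of the ATP synthase, with -0.42 ± 0.10 (SE; limma, adjusted p = 0.0213), Uqcrc1 with -0.21 ± 0.06 (adjusted p = 0.0377) and Ndufv1 with -0.19 ± 0.05 (adjusted p = 0.0401). Atp5k averaged 35.0 FPKM in the first range and 26.1 FPKM in the other. None of these 3 calls held with sex and training as covariates, where 0 subunit genes were lower at an adjusted p under 0.05 (0% of all genes) and 5 at an unadjusted p under 0.05 (limma). In that fit the range is told from sex only through Untrained 17, the only female in 10 to 17. It can therefore decide little about these calls. The 3 calls were also lost without Untrained 5 (0 lower, against 1.61% of all genes, and 18 at an unadjusted p under 0.05) and without Untrained 6 (0 lower, against 0.850%, and 15). No gene had a training difference that differed between the sexes at an adjusted p under 0.05 (limma interaction, 0% of all genes).

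Genes that work with the subunits differed in both directions. Of 6 genes of the chain whose symbols fall outside the rule, among them the electron carrier cytochrome c (Cycs) and the ATP synthase inhibitor Atpif1, 5 had higher means in trained mice and Cycs a lower one. Ndufab1, the acyl carrier protein in complex I, averaged 19.0 ± 1.04 FPKM in trained mice (SD, n = 6) and 15.5 ± 3.28 FPKM in untrained mice (SD, n = 5) (limma, adjusted p = 0.562). All 7 carriers and porins had higher means, with a median difference of 0.10 and none at an unadjusted p under 0.05. Of 43 assembly factors measured, 24 were higher and 19 lower. Ndufaf3 alone was higher and Ndufaf1 alone lower at an unadjusted p under 0.05, against 4.13% and 4.20% of all genes. Of 17 genes of the tricarboxylic acid cycle and pyruvate dehydrogenase, 8 were higher and 9 lower, with none at an unadjusted p under 0.05 and Idh3g closest at a log2 difference of 0.10. The median differences of these last lists were 0.01 and -0.0012, near that of all genes.

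Among 17 regulators of respiratory genes, 6 had a higher and 11 a lower mean in trained mice. Ppargc1b, which encodes the coactivator PGC-1beta, had the smallest p. Its trained libraries ran from 4.19 FPKM over a median of 4.72 to 5.84 FPKM, and Untrained 5, 6, 10, 16 and 17 were at 3.94, 3.26, 3.95, 4.01 and 3.33 FPKM. Here the groups did not overlap, as in 0.375% of all genes with trained libraries higher but in no subunit gene. Trained 14 was among the highest libraries. The log2 difference was 0.38 ± 0.11 (SE; exact permutation test, two-sided, p = 0.00866; limma, adjusted p = 0.537). Pprc1, a related coactivator, was higher and Gabpb1, a subunit of the factor GABP, lower at an unadjusted p under 0.05, by 0.25 and -0.19 on the log2 scale, and none of the 17 had an adjusted p under 0.05.

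Promoters of respiratory genes are known for sites of NRF1, of ETS factors such as GABP and of YY1, and the promoter sequences of the subunit genes were searched for them. RefSeq windows on GRCm38.p6, the build of the alignment, reach from 250 bases before to 50 bases after the start site and were found for 66 of the 79 genes. On either strand, the NRF1 word, GCGCA and GCGC with 1 base between them, was present in 15 of the 66 (22.7%), against 4.78% of 27025 promoters of the same length. The ETS word CCGGAAG was present in 15 (22.7%, against 9.12%) and the YY1 word, AA and ATGGC with 1 base between them, in 16 (24.2%, against 6.23%). In 77 promoters of cytosolic ribosomal proteins the NRF1 word was present in 7.79%, the ETS word in 33.8% and the YY1 word in 15.6%. The ETS word was thus more frequent there than in the subunit genes. After the windows had been read, ACTACA and TCCC with 2 bases between them was added, the word bound by ZNF143 and THAP11, since it was seen in several of them. It was present in 7 (10.6%, against 1.98%). At least 1 of the 4 words, this later one included, was held by 44 of the 66 (66.7%, against 19.3% of all promoters). In the ribosomal protein promoters these shares were 2.6% for the later word and 54.5% for any of the 4. A match is a description of the letters and does not show that a factor binds.

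The windows of the gene with the smallest p in each complex are shown with that of Sdha, whose mean was lower in trained mice, since they carry different words. Capitals mark a match to any of the 4 words. Ndufa7 lies on chromosome 17 (chr17:33824322-33824621, plus strand), Sdhb on chromosome 4 (chr4:140961021-140961320, plus strand), Sdha on chromosome 13 (chr13:74350191-74350490, minus strand), Uqcr10 on chromosome 11 (chr11:4704295-4704594, minus strand), Cox7b on chromosome X (chrX:106015450-106015749, plus strand) and Atp5d on chromosome 10 (chr10:80142025-80142324, plus strand).
Ndufa7: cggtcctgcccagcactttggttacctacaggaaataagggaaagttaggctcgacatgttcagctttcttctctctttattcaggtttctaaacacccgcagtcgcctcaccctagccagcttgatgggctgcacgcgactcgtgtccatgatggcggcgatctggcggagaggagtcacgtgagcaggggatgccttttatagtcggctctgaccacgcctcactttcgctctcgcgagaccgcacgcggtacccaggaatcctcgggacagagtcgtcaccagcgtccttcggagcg
Sdhb: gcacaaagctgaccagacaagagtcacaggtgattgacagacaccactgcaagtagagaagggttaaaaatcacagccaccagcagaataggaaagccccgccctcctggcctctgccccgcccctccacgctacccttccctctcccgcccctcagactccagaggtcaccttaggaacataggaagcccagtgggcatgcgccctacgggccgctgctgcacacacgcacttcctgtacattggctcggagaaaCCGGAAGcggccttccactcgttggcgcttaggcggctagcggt
Sdha: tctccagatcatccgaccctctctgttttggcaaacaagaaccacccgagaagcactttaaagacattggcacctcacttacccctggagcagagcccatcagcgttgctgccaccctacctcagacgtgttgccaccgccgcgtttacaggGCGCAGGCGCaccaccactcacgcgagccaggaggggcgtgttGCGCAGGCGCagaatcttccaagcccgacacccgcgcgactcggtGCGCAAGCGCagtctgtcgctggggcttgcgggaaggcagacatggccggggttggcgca
Uqcr10: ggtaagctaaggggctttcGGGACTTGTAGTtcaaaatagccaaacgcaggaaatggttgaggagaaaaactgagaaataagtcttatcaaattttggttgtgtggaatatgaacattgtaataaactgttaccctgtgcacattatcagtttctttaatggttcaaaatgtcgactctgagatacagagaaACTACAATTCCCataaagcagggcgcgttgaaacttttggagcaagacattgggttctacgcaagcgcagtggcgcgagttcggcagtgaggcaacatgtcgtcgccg
Cox7b: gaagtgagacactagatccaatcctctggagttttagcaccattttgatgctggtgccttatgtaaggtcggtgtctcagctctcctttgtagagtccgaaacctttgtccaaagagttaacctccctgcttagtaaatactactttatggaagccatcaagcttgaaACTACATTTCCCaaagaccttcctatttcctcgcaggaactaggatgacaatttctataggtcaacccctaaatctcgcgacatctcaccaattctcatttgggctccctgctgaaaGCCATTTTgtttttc
Atp5d: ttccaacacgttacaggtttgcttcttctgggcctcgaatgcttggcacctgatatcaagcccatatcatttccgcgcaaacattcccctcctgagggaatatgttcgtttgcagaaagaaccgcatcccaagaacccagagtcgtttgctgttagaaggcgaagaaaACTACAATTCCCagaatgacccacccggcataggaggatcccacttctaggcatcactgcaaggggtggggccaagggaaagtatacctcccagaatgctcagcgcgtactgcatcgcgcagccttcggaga

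Sdha held 3 NRF1 words, starting 98, 55 and 10 bases before the start site, and Sdhb an ETS word 6 bases after it. The ZNF143 and THAP11 word started 82 bases before the start site in both Cox7b and Atp5d, and 231 and 58 bases before it in Uqcr10. Cox7b also held a YY1 word 35 bases after the start. The window of Ndufa7 held none of the words.

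Subunit genes with and without an NRF1 or YY1 word had nearly the same median difference, and those with an ETS word a somewhat higher one. These contrasts were not tested. The median log2 difference was 0.16 for the 15 genes with an NRF1 word and 0.16 for the 51 without. It was 0.19 and 0.14 with and without an ETS word, and 0.15 and 0.16 with and without a YY1 word. The 7 genes with the ZNF143 and THAP11 word, Ndufa3, Ndufv1, Uqcr10, Cox7b, Cox7c, Atp5d and Atp5o, had a median of 0.27, against 0.16 for the other 59. That word was picked from windows shown for their small p, those of Uqcr10, Cox7b and Atp5d among them. The higher median was thus in part fixed by the choice and does not show that the word sorts the genes by their difference.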

How the data were processed

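RNA from the ACC of 6 trained and 5 untrained mice was sequenced with a stranded mRNA kit, 1 library per mouse. Per the methods and the submitters' processing notes, Trimmomatic 0.38 removed adapters, Bowtie2 2.3.5.1 placed the reads on mm10, and featureCounts of Subread 1.6.3 counted them. The authors deposited FPKM for 14974 genes. No source used here gives the annotation, the strand setting or the step from counts to FPKM. An untrained male was left out by the authors for few reads. A deposited table of their own edgeR 3.30.3 comparison, with log2 fold changes, p-values and false discovery rates, was not used.

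Groups were taken from the treatment label of each sample. Those 14936 genes whose mean reached 0.1 FPKM were compared on log2(FPKM + 0.1), a scale that understates differences of low genes, with limma 3.58.1 (lmFit, eBayes with trend) in R 4.3.3, two-sided, with Benjamini-Hochberg adjustment over all genes tested. The fit was tested on simulated data beforehand. For single genes an exact permutation test went through all 462 ways to assign 6 of the 11 libraries to the trained group, with a smallest p of 0.0022. Differences between number ranges were fitted with training as a covariate, and sex differences as an interaction. No count test was run, since FPKM are not counts.

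Depth was estimated from the period of low values of genes with a single transcript; between 59.8% and 65.4% of 305 to 370 low values per library came within 0.1 of a whole number of fragments. Coordinates, coding lengths and copies come from GENCODE M21, in which 14829 symbols (99.0%) were found, and promoters from RefSeq. Copies were found by BLAST. Motifs were counted with Python 3.11.15, numpy 2.4.6 was used for depth and matplotlib 3.10.9 for plots.

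Genes named in the text are the core subunits, the isoform pairs, per complex the genes with the highest and lowest level and with the smallest p in each direction, those called between number ranges, and the gene with the smallest p of each related list; further genes were chosen after their values were seen, and 1 gene that the rule takes is not reported here. The members and all lists were chosen with earlier results of these data known. Alternatives were other pseudocounts, filters and scalings, covariates, array weights and each library left out.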

Additional observations from a re-analysis of the deposited data

Results flagged for a closer look

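In 108 sets of values (41 genes taken by the naming rule, 5 complexes, all 79 genes together and 7 isoform shares, each in both groups) the gap between an extreme library and its nearest neighbour was set against the range of its group, a check that chance passes in about 1 set of 20. It was passed 20 times, 15 times by Trained 14 and 5 times by Untrained 10. The sets are not independent, since they come from the same libraries.

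Trained 14 was the isolated lowest trained library for the mean deviation of all 79 genes (-0.20, against 0.10 to 0.16 in the others), of complex I (-0.22), complex III (-0.24), complex IV (-0.24) and complex V (-0.13). Among single genes it was so for Ndufa11 (7.74 FPKM), Ndufa7 (10.7 FPKM), Sdhb (100.1 FPKM), Uqcrq (140.1 FPKM), Cox4i1 (458 FPKM), Cox6a1 (226 FPKM), Cox7a2 (70.8 FPKM), Cox7b (19.3 FPKM), Atp5c1 (50.7 FPKM) and Atp5d (169 FPKM). Its markers of choroid plexus summed to 0.611 FPKM, the lowest trained value, and its 6 neuronal markers to 2881 FPKM, the highest trained value. The neuronal genes were split. Among trained libraries Snap25, Syt1 and Gad2 were highest in Trained 14, Gad1 lay between, and Slc17a7 and Rbfox3 were lowest. Its depth of 17.8 M fragments was the lowest of the trained libraries. Their part in its low subunit levels was not tested.

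Untrained 10 was the isolated lowest untrained library for Uqcr10 (39.3 FPKM, against 84.2 to 101 FPKM) and Cox7a2l (41.8 FPKM), and the isolated highest for Atp5c1 (60.9 FPKM). It was also the isolated highest for the share of Cox6a2 (3.44%) and of Cox6b2 (1.10%). The common isoform of both was low in this library, and Cox6b2 itself was at 1.47 FPKM there, its highest untrained value. No training difference of a subunit gene differed between the sexes at an adjusted p under 0.05 (limma).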

How the results depend on the processing

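Under every alternative run, 70 to 75 of the 79 genes had a higher mean in trained mice, 0 were lower at an unadjusted limma p under 0.05 and 0 had an adjusted p under 0.05. The count of 13 higher at an unadjusted p under 0.05 was 36 with sex as a covariate (6.34% of all genes), 30 with array weights (5.78%) and 51 with Trained 14 and Untrained 10 both left out (8.32%), a setting chosen after seeing the data. Leaving out 1 library gave 6 to 50 (2.81% to 7.49%). The median difference of all 79 genes was 0.10 to 0.21 when 1 library was left out, and every complex kept a positive median.

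Between number ranges the count of 3 lower genes was 1 with quantile normalization (3.22% of all genes), 9 with median centring (4.23%) and 0 with sex and training as covariates (0%), and 0 to 16 with 1 library left out (0.850% to 6.27%), with 16 without Trained 12 (3.92%) and 9 without Untrained 10 (6.27%); the median kept its sign throughout (-0.21 to -0.11 with 1 library left out). The range fit with sex and training can decide little, since it tells range from sex only through Untrained 17. Small training differences changed sign: Atp5a1 was -0.00497 with quantile normalization, Uqcrb 0.032 and Atp5c1 0.035 with array weights. With Trained 14 and Untrained 10 both left out Ndufs1 was 0.0056, Sdha 0.0036, Sdhd -0.00566, Uqcrb 0.097 and Atp5c1 0.050. With 1 library left out Uqcrc2 ran from -0.018 to 0.0082, Uqcrb from -0.12 to 0.045, Atp5c1 from -0.018 to 0.036 and Sdhd from -0.015 to 0.050. The cause of these changes was not tested. Of 861 values of the 41 genes taken by the naming rule under alternatives, 739 kept direction and side of the unadjusted threshold, 79 passed it newly, 26 no longer passed it and 17 changed sign.

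No paired analysis was possible because the groups share no replicate number. P-values measure the spread between mice of 1 experiment. Genes under 2 FPKM (Cox4i2, Cox6b2, Cox7a1) rest on few fragments, and levels of genes with copies depend on how shared fragments were counted.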
